A study of Mus musculus with 2 samples.

Results

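The 49 genes described here are those named for subunits of mitochondrial respiratory complexes II to V, with cytochrome c, and were taken from the 23337 gene symbols of the deposited count table by name alone. They are the rows named Sdha, Sdhb, Sdhc, Sdhd, Cyc1 and Cycs and every row whose symbol begins with Uqcr, Cox4i, Cox5, Cox6, Cox7, Cox8 or Atp5, which gives 4 genes of complex II, 9 of complex III, 18 of complex IV, 17 of complex V and Cycs. RNA came from regulatory T (Treg) cells of injured mouse muscle, which are CD4 T cells marked by the factor Foxp3 and known to hold other immune cells in check. In the IL-33 group, muscles of the lower and upper hind leg (tibialis anterior, gastrocnemius and quadriceps) received the snake toxin cardiotoxin, which kills muscle fibres, and 0.3 ug of recombinant IL-33, a cytokine released by damaged tissue. In the PBS group they received cardiotoxin and PBS. Both groups were 8-week-old male mice of the Foxp3-IRES-GFP/C57BL/6 background, in which a green fluorescent protein reports Foxp3 expression, and muscles were taken 4 days after injury. Each group is 1 RNA-seq library of 5000 sorted Treg cells, made from amplified poly(A) RNA and read as pairs of 25 bases. How many mice gave the cells, and whether mice were pooled, is not given in the labels. No difference below therefore has a replicate check, there is no test or p-value, and "higher" and "lower" compare 2 libraries, not 2 treatments. "With IL-33" and "with PBS" name these libraries.

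The respiratory chain sits in the inner mitochondrial membrane. Complex II (succinate dehydrogenase) passes electrons from the citric acid cycle to ubiquinone, complex III (cytochrome bc1) passes them on to cytochrome c, and complex IV (cytochrome c oxidase) hands them to oxygen. Complexes III and IV pump protons, and complex V (ATP synthase) lets the protons flow back and makes ATP. All complex II subunits are encoded in the nucleus, while complexes III, IV and V also hold subunits encoded in mitochondrial DNA. Of 13 mitochondrially encoded subunit genes looked up, 0 have a row in the table, so only nuclear genes are described. Treg cells are known to lean on oxidative metabolism more than effector T cells do.

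The IL-33 library held 4080791 counts and the PBS library 1573707, so intervals are narrower for the IL-33 library. Levels are in CPM, that is, a gene's count over its library's total, times 1000000. 1 count is 0.245 CPM with IL-33 and 0.635 CPM with PBS, and a count of 0 allows up to 0.735 CPM with IL-33 and 1.91 CPM with PBS (3 counts). Treg and T cell markers summed to 11408 CPM with IL-33 and 11529 CPM with PBS, of which Ctla4 gave 6186 CPM with IL-33 and 6246 with PBS. Within this sum the IL-33 to PBS ratios were below 1 for Il2ra (0.721, 0.674 to 0.771) and Ikzf2 (0.873, 0.836 to 0.912). They were above 1 for Cd3d (1.26, 1.19 to 1.35) and Cd3g (1.15, 1.09 to 1.21), and the intervals of Ctla4, Cd4 and Cd3e held 1. Foxp3, the defining gene of Treg cells, had 40 counts (9.80 CPM) with IL-33 and 1 count (0.635 CPM) with PBS, a ratio of 15.4 (2.61 to 624), so its level with PBS rests on 1 count. Markers of skeletal muscle fibre summed to 5.88 CPM with IL-33 and 10.8 with PBS, with 8 of 15 at 0 counts in both libraries, among them Ckm, Mb and Myh2. The 6 satellite cell markers and the 3 neutrophil markers listed were at 0 in both. Fibroblast markers summed to 0 CPM with IL-33 and 86.4 CPM with PBS (7 of 7 at 0 with IL-33 and 3 of 7 with PBS), dendritic cell markers to 20.8 CPM with IL-33 and 93.4 with PBS (5 of 9 at 0 in each), and monocyte and macrophage markers to 44.4 CPM with IL-33 and 50.8 with PBS (3 of 11 at 0 in each). Within this last sum, Lyz2 had 19.1 CPM with IL-33 and 38.8 with PBS (0.493, 0.348 to 0.701). Itgam went the other way, at 16.2 CPM with IL-33 and 7.63 with PBS (2.12, 1.14 to 4.31). Endothelial markers summed to 49.3 CPM with IL-33 and 52.1 with PBS (2 of 4 at 0 in each). Most of that was Pecam1 (48.5 and 45.1 CPM), while Cdh5 had 0.735 CPM with IL-33 and 6.99 with PBS (0.105, 0.0188 to 0.398). B cell markers summed to 32.3 CPM with IL-33 and 26.7 with PBS (0 of 4 at 0). The part of the other cells, or of the Foxp3 counts, in the differences below was not tested, and in such bulk libraries fewer cells of a type and less RNA per cell cannot be told apart.

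Together the genes were higher with IL-33, though unevenly. They held 45050 counts or 1.10% of the IL-33 library and 14277 counts or 0.907% of the PBS library, a ratio of 1.22 with a 95% counting interval of 1.19 to 1.24. Every interval here is exact and covers counting error only, since amplified reads without molecular identifiers are not independent molecules. Complex III was 1.42 times the PBS level (1.34 to 1.49), complex IV 1.33 times (1.27 to 1.38), complex V 1.14 times (1.11 to 1.17) and complex II 1.03 times (0.958 to 1.10). Only the interval of complex II held 1, and by TMM scaling it did not.

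Single genes were compared where at least 1 library reached 5 CPM, as 41 of the 49 members did. Of these, 29 had a log2 fold above 0 (70.7%), as did 45.6% of all genes. Of the other 8 members, 6 had 0 counts in both libraries and 2 (Cox7a1 and Atp5sl) had a few. The median log2 fold of IL-33 over PBS, taken on CPM plus 1, was 0.39 over the 41 members and -0.08 over all 9005 genes that reached this floor, a gap of 0.47. Scaling by trimmed means (TMM) in place of library totals adds 0.13 to the median of all genes, so a gene nearer to 0 than that has no settled direction, and calls near the edge of an interval change too. At 2-fold or more, 2 members were higher, Cox6b1 and Cox7a2, against 15.5% of all genes, and 1, the thinly counted Atp5s, was lower, against 16.3%. At 1.5-fold or more, 11 members were higher, against 23.5% of all genes, and 1 was lower, against 27.4%. The counting interval lay above 1 for 23 members and below 1 for 8, where the shares among all genes were 28.6% and 35.1%. By TMM scaling it lay above 1 for 27 members and below 1 for 4 (Atp5a1, Atp5s, Cox5b and Sdha), beside 33.9% and 29.4% of all genes, so that the calls of Atp5f1, Atp5o, Cox8a and Cyc1 as lower were lost.

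The members are better counted than most genes, so genes whose mean over the libraries was at least 100 CPM are the closer background. Of the 32 members there, 25 had a log2 fold above 0, where 42% of the 2044 genes there did. Of the same 32, 10 were at least 1.5-fold higher (8.02% of the 2044) and 0 were at least 1.5-fold lower (13.1%). At 2-fold, 2 were higher (2.45%) and 0 were lower (2.59%). The median was 0.41 over these members and -0.08 over these genes.

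**Figure D1:**
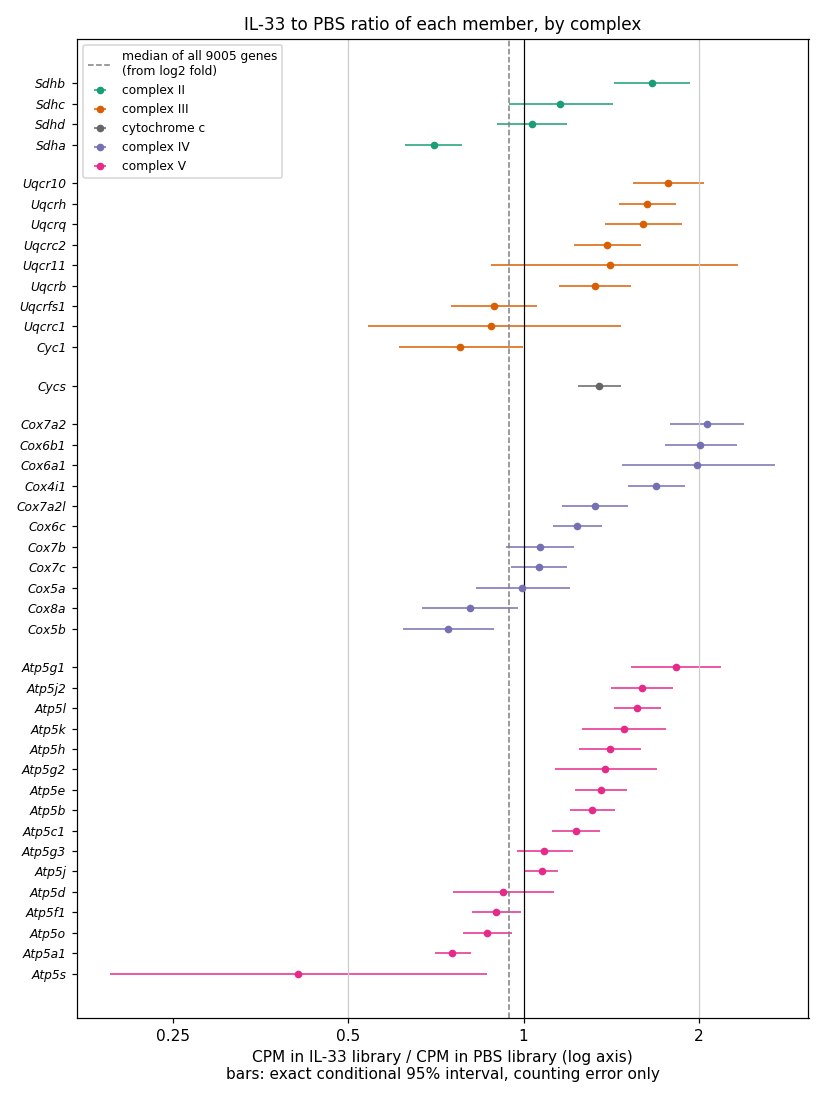
Ratio of CPM with IL-33 to CPM with PBS on a log axis for the 41 members at 5 CPM or more in a library, grouped and coloured by complex, with exact 95% counting intervals; the solid line marks 1, the dashed line the median of all 9005 genes and the pale lines 2-fold. Each complex spans both sides of 1, from Sdhb at 1.66 to Sdha at 0.701 in complex II, for example, and Atp5s has the widest interval.

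Complex II differed little in sum while its subunits split. Sdha, the flavoprotein that oxidises succinate, had 874 counts (214 CPM) with IL-33 and 481 counts (306 CPM) with PBS, a ratio of 0.701 (0.626 to 0.785). Sdhb, the iron-sulphur subunit bound to it, had 935 counts (229 CPM) with IL-33 and 217 counts (138 CPM) with PBS, a ratio of 1.66 (1.43 to 1.94). The catalytic pair thus lay on opposite sides of 1, and their summed ratio was 0.999 (0.915 to 1.09). Sdhc and Sdhd anchor the enzyme in the membrane and bind ubiquinone. Sdhc stood at 94.8 CPM with IL-33 and 82.0 CPM with PBS, and Sdhd at 187 CPM with IL-33 and 181 with PBS. Both intervals held 1 (0.946 to 1.42 and 0.901 to 1.19). Without Sdha, its member of highest mean CPM, complex II had a ratio of 1.28 (1.17 to 1.40). With TMM scaling the ratio of all 4 genes was 1.12 (1.04 to 1.20), an interval that no longer held 1.

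The promoters of Sdha and Sdhb are shown because this pair had the largest gap within the smallest complex. Each sequence runs 5′ to 3′ on the strand of the gene, from 250 bases before the RefSeq start to 30 bases after it, on GRCm38.p6. Sdha lies at chr13:74350211-74350490 on the minus strand and Sdhb at chr4:140961021-140961300 on the plus strand. Capitals mark exact matches on either strand to GCGCA, any base and GCGC in a row, a core of the site of nuclear respiratory factor 1 (NRF1), and to CCGGAAG, a core of ETS factor sites that include GABPA. Both factors are known regulators of genes for respiratory subunits, and a match on the opposite strand appears here as its reverse complement.
Sdha: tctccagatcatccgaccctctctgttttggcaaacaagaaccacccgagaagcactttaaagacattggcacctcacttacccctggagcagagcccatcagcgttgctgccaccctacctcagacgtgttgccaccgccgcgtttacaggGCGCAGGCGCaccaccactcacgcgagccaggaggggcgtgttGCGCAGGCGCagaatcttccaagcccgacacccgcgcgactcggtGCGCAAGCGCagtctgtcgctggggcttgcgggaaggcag
Sdhb: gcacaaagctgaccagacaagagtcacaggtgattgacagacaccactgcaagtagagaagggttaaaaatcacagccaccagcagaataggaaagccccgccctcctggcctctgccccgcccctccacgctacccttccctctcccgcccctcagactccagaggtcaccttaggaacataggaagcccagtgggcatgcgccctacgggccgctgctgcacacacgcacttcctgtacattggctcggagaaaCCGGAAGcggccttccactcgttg
The Sdha window held 3 NRF1 matches and the Sdhb window 1 ETS match, which lies after the start. A match is a run of letters and shows no binding.

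Complex III had the highest summed ratio over all its members, with the small subunits highest, though its interval overlapped that of complex IV. Without members that have many shared 25-base runs, described further on, complex III stood at 1.15 (1.045 to 1.27) and complex IV at 1.71 (1.57 to 1.87). Over transcripts of 1000 nt or more they stood at 1.11 (1.01 to 1.22) and 1.20 (1.09 to 1.31). Under that second limit complex IV is Cox7a2l and Cox7b alone and the intervals overlap. Only under the first limit were the intervals of the pair apart, with complex IV higher. Uqcr10, a supernumerary subunit with no redox centre, had 279 CPM (1140 counts) with IL-33 and 158 CPM (248 counts) with PBS, a ratio of 1.77 (1.54 to 2.04). Uqcrh, the acidic hinge protein that touches cytochrome c1, had 398 CPM with IL-33 and 244 with PBS, a ratio of 1.63 (1.46 to 1.83). Uqcrq, the ubiquinone-binding protein QP-C, had 219 CPM with IL-33 and 136 with PBS (1.61, 1.38 to 1.87). These intervals did not reach 1. Uqcrb, which helps hold the ubiquinone site, followed with 218 CPM with IL-33 and 165 with PBS (1.33, 1.15 to 1.53). Uqcr11, another small subunit, was thinly counted, at 84 counts with IL-33 and 23 with PBS, and its interval of 0.879 to 2.34 held 1. As a set, these 5 small subunits summed to 1135 CPM with IL-33 and 717 with PBS, a ratio of 1.58 (1.48 to 1.69).

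The core and redox subunits of complex III were nearer to 1 in sum, with Uqcrc2 apart from the other 3. Cyc1, the haem-bearing cytochrome c1, had 50.5 CPM (206 counts) with IL-33 and 64.8 CPM (102 counts) with PBS, a ratio of 0.779 whose interval (0.611 to 0.997) only just left out 1 and held it by TMM scaling. Uqcrfs1, the Rieske iron-sulphur protein, had 112 CPM with IL-33 and 126 with PBS (0.889, 0.752 to 1.06). Uqcrc2, a core scaffold subunit, had 256 CPM with IL-33 and 184 with PBS (1.39, 1.22 to 1.59). Its partner core subunit Uqcrc1 had only 57 counts (14.0 CPM) with IL-33 and 25 counts (15.9 CPM) with PBS, and its interval of 0.541 to 1.47 held 1. Summed, these 4 genes had a ratio of 1.11 (1.01 to 1.22). The median log2 fold of complex III was 0.47 over all 9 genes. It was -0.17 when short transcripts, or those with many shared 25-base runs, were set aside as described further on. Both limits left Cyc1, Uqcrc1 and Uqcrfs1, joined by Uqcrc2 under the first and Uqcrq under the other. Each median is the midpoint of Uqcrc1 and Uqcrfs1. The groupings of complex III, and those of complex V by part of the enzyme, were made with the values known. In complex III the small subunits have transcripts of 402 to 535 nt and the core and redox subunits of 1363 to 1896 nt. Kind of subunit and transcript length thus cannot be told apart in this complex.

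Cycs, the mobile cytochrome c that carries electrons from complex III to complex IV and also triggers apoptosis when released, had 618 CPM (2521 counts) with IL-33 and 458 CPM (720 counts) with PBS. The ratio was 1.35 (1.24 to 1.47).

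Complex IV held both members that were higher by 2-fold. Cox7a2, the broadly expressed form of subunit VIIa, had 291 CPM (1189 counts) with IL-33 and 141 CPM (222 counts) with PBS, a ratio of 2.07 (1.79 to 2.39). Cox6b1, the intermembrane-space subunit that bridges the enzyme dimer, had 296 CPM (1207 counts) with IL-33 and 147 CPM (231 counts) with PBS, a ratio of 2.02 (1.75 to 2.33). Cox6a1, the broadly expressed form of VIa, had 68.1 CPM (278 counts) with IL-33 and 34.3 CPM (54 counts) with PBS, and with a log2 fold of 0.97 stood just short of the 2-fold line. The intervals of these 3 overlap, so the line does not separate them.

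The other subunits of complex IV graded down from there. Cox4i1, the largest nuclear-encoded subunit and a site of ATP regulation, had 409 CPM with IL-33 and 242 CPM with PBS (1.69, 1.51 to 1.89). Cox7a2l, which links complexes III and IV in supercomplexes, had 254 CPM with IL-33 and 191 with PBS (1.33, 1.17 to 1.51). Cox6c had 438 CPM with IL-33 and 355 with PBS (1.24, 1.12 to 1.36). The small membrane subunits Cox7b, at 205 CPM with IL-33 and 193 with PBS, and Cox7c, at 306 CPM with IL-33 and 288 with PBS, had ratios of 1.07 and 1.06 with intervals that held 1, as did Cox5a at 102 CPM with IL-33 and 103 with PBS. Cox5b, a zinc-binding subunit on the matrix side, was lower with 88.2 CPM with IL-33 and 119 with PBS (0.742, 0.620 to 0.891), while Cox8a had 85.3 CPM with IL-33 and 105 with PBS (0.808, 0.670 to 0.979, an interval that came to hold 1 by TMM scaling). Cox5a and Cox5b, both matrix-side subunits, thus had different ratios, though their intervals overlap.

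The promoters of the pair past 2-fold are shown in the same way, Cox6b1 at chr7:30626085-30626364 and Cox7a2 at chr9:79759824-79760103, both on the minus strand. The Cox6b1 window held 1 ETS match, written here as its reverse complement, which begins 28 bases before the start, and the Cox7a2 window held 0 matches to either run.
Cox6b1: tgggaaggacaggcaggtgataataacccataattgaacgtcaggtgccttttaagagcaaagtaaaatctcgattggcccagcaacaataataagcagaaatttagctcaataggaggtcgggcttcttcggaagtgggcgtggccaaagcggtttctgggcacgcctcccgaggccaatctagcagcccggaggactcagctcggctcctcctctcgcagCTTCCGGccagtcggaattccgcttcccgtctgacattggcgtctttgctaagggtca
Cox7a2: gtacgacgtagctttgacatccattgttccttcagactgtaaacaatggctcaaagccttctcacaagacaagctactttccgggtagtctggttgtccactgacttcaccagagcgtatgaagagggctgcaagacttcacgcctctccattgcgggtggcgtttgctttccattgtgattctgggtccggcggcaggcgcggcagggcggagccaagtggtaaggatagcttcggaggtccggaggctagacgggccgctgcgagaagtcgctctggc
The pair past 2-fold therefore did not share these letters in these windows.

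Tissue-restricted forms of complex IV subunits were all but missing from both libraries. Cox6a2 and Cox8b, the heart and muscle forms of VIa and VIII, had 0 counts in each. The muscle form Cox7a1 had 3 counts with IL-33 and 0 with PBS, 0.252% (0.0519 to 0.734) of the counts of Cox7a1 and Cox7a2 with IL-33. In the PBS library 0 of 222 such counts allows a share of up to 1.35%. Cox4i2, known from lung, and the testis forms Cox6b2, Cox7b2 and Cox8c also had 0 counts in both. For Cox4i2 this allows up to 0.180% of the counts of the Cox4i pair with IL-33 and 0.787% with PBS. The broad forms Cox6a1, Cox7a2 and Cox8a therefore stood beside 3 counts in all from the muscle forms.

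**Figure D2:**
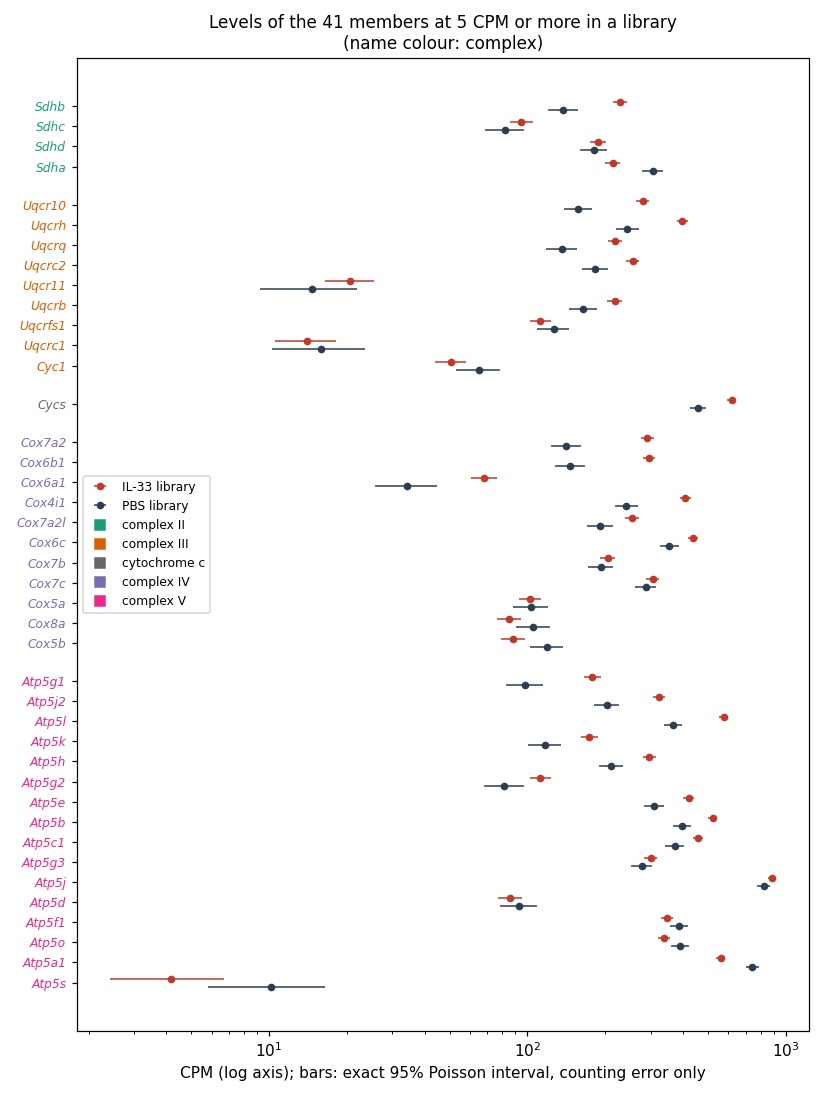
Level of each of the 41 members in CPM on a log axis, with the IL-33 library in red and the PBS library in dark blue, exact 95% Poisson intervals as bars and the gene name coloured by complex. Atp5j is the highest in both libraries at 883 CPM with IL-33 and 822 with PBS, and red points lie to the right of blue ones for 29 of the 41 genes.

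Complex V had the highest summed CPM of the complexes, 5585 with IL-33 and 4883 with PBS, without regard to transcript length or number of genes. Its highest ratios were among membrane subunits, with mixed ones in the head. Atp5a1 and Atp5b encode the alpha and beta subunits that form the catalytic head. Atp5a1 had 560 CPM (2286 counts) with IL-33 and 742 CPM (1168 counts) with PBS, a ratio of 0.755 (0.703 to 0.811). Atp5b had 522 CPM (2129 counts) with IL-33 and 397 CPM (625 counts) with PBS, a ratio of 1.31 (1.20 to 1.44). These subunits stand in equal number in the enzyme, yet their transcripts lay on opposite sides of 1. The central stalk genes were Atp5c1 (gamma), at 458 CPM with IL-33 and 372 with PBS (1.23, 1.12 to 1.35), Atp5e (epsilon), at 421 CPM with IL-33 and 310 with PBS (1.36, 1.23 to 1.504), and Atp5d (delta), at 85.5 CPM with IL-33 and 92.8 with PBS (0.922, 0.758 to 1.13). Summed, head and central stalk had a ratio of 1.07 (1.03 to 1.11).

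The peripheral stalk, which holds the head still, had no common direction. Atp5o, the oligomycin-sensitivity protein at its tip, had 338 CPM with IL-33 and 389.5 CPM with PBS (0.867, 0.788 to 0.955). Atp5f1 (subunit b) had 349 CPM with IL-33 and 388 with PBS (0.898, 0.816 to 0.989). Atp5h (subunit d) had 297 CPM with IL-33 and 211 with PBS (1.41, 1.24 to 1.59), and Atp5j, the coupling factor of the stalk and the most abundant gene of the whole set, had 883 CPM with IL-33 and 822 with PBS (1.07, 1.01 to 1.15). In sum, the 4 genes had a ratio of 1.03 (0.987 to 1.08). The small membrane subunits Atp5j2 (f), Atp5k (e) and Atp5l (g) sit beside the proton channel, and e and g are needed for the enzyme to form dimers. They were higher throughout: Atp5j2 had 324 CPM with IL-33 and 203 with PBS (1.60, 1.41 to 1.81), Atp5l 577 CPM with IL-33 and 367 with PBS (1.57, 1.43 to 1.72) and Atp5k 174 CPM with IL-33 and 117 with PBS (1.49, 1.26 to 1.76). Their sum had a ratio of 1.56 (1.46 to 1.67). Their transcripts are short, at 272 to 544 nt, and the part of length in this ratio was not tested.

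A pair of the Atp5 rows are not ATP synthase subunits. Atp5s, a factor tied to ATP synthase coupling, had 17 counts (4.17 CPM) with IL-33 and 16 counts (10.2 CPM) with PBS (0.410, 0.195 to 0.867). Atp5sl, now named Dmac2 and known from complex I assembly, had 8 counts with IL-33 and 6 with PBS and stayed under the floor. Without them, cytochrome c, Cox7a2l and the tissue forms, 38 members remained and 0 were lower by 2-fold.

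The proton-carrying c ring is made from 3 genes, Atp5g1, Atp5g2 and Atp5g3, which encode the same mature protein behind different targeting sequences. Atp5g1 had 179 CPM (729 counts) with IL-33 and 97.9 CPM (154 counts) with PBS, a ratio of 1.83 (1.53 to 2.19). Atp5g2 had 112 CPM (459 counts) with IL-33 and 81.3 CPM (128 counts) with PBS, a ratio of 1.38 (1.13 to 1.70), and Atp5g3 had 301 CPM (1228 counts) with IL-33 and 277 CPM (436 counts) with PBS, a ratio of 1.09 (0.973 to 1.21). Atp5g3 was the main source in both libraries, with 50.8% (48.8 to 52.8) of the counts of the 3 genes with IL-33 and 60.7% (57.0 to 64.3) with PBS. Atp5g1 made up 30.2% (28.3 to 32.0) with IL-33 and 21.4% (18.5 to 24.6) with PBS, and Atp5g2 19.0% (17.5 to 20.6) with IL-33 and 17.8% (15.1 to 20.8) with PBS. The intervals of the Atp5g1 and Atp5g3 shares do not overlap between the libraries, and those of Atp5g2 do. Per kilobase of transcript Atp5g3 also led, at 45.1% with IL-33 and 54.3% with PBS, while Atp5g1 and Atp5g2 were level with IL-33 (27.6% and 27.3%) and Atp5g1 was below Atp5g2 with PBS (19.8% and 25.8%). All of the 25-base runs of the Atp5g2 transcript and 59.1% of those of Atp5g1 also occur in other genes, against 1.45% for Atp5g3. A single processed pseudogene, Gm10039, holds 54.3% of the runs of Atp5g1, and Gm10175 and Gm10231 each hold all of those of Atp5g2. How reads of such runs were assigned is not given, so these shares are uncertain.

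**Figure D3:**
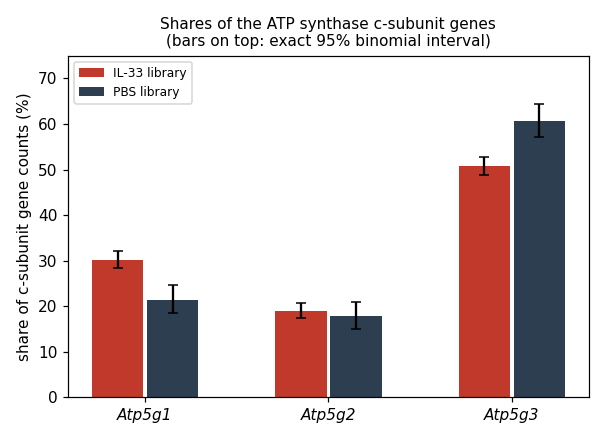
Share of the counts of the 3 c-subunit genes given by each, in percent, with the IL-33 library in red to the left of the PBS library in dark blue and exact 95% binomial intervals as error bars. The Atp5g1 share is 30.2% with IL-33 and 21.4% with PBS and the Atp5g3 share 50.8% and 60.7% in the same order, with no overlap of intervals, while the Atp5g2 bars differ by less than their intervals.

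The promoters of the c-ring genes are shown because the same mature protein is made from each of them. They lie at chr11:96075602-96075881 for Atp5g1, chr15:102671018-102671297 for Atp5g2 and chr2:73911297-73911576 for Atp5g3, all on the minus strand. Capitals again mark NRF1 letters, found once in Atp5g2, 42 bases before the start, and once in Atp5g3, after the start.
Atp5g1: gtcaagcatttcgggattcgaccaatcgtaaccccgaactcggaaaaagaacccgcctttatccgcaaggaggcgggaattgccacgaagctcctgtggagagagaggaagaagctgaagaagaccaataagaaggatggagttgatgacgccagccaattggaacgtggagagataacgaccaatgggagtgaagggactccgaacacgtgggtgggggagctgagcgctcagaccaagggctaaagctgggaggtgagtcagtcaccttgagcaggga
Atp5g2: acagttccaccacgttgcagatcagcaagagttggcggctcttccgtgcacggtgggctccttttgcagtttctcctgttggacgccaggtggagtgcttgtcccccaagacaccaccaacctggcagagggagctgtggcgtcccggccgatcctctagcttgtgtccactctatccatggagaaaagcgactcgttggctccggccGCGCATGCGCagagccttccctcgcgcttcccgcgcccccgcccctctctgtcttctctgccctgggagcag
Atp5g3: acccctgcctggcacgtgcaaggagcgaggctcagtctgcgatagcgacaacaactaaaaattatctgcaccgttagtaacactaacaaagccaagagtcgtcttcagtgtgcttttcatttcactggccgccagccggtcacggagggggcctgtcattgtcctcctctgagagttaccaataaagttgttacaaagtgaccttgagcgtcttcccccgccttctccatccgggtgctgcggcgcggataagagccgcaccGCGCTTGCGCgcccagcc
The Atp5g1 window, from the gene with the highest ratio of the 3, held neither run.

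Promoter windows of 300 bases (250 before and 50 after the RefSeq start, GRCm38.p6) could be matched for 38 of the 49 members, which had 42 windows in all. Not matched were Atp5a1, Cox4i1, Cox4i2, Cox6a2, Cox6c, Cox8c, Cyc1, Sdhc, Uqcrb, Uqcrc2 and Uqcrq. In 32 of the 42 windows, bases shortly after the start also occur in an annotated transcript of the gene. They do not in the printed windows of Atp5g2 and Cox7a2, so positions relative to those starts are uncertain. CCGGAAG stood on either strand in 28.6% of member windows, in 8.86% of all 32851 windows and in 18.6% of the 2142 windows of genes whose mean was at least 100 CPM. The NRF1 letters stood in 23.8%, 4.60% and 11.2% of these. AAGATGGCG, a run of YY1 sites, stood in 9.52%, 1.40% and 3.36%, and TGACGTCA, the cyclic AMP response element, in 4.76%, 1.79% and 3.22%. The median GC content was 56.5% over member windows, 52.7% over all windows and 61.7% over windows of the well-expressed genes. Among members over the floor, the median log2 fold was 0.53 for the 12 with CCGGAAG and 0.09 for the 21 without, and 0.21 for the 10 with the NRF1 letters and 0.41 for the 23 without. The 12 with CCGGAAG have transcripts of 272 to 1231 nt and the 21 without of 434 to 3123 nt. Transcript length also moved with the fold, as described below, and the part of length in these medians was not tested. These are descriptions of letters in windows.

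Levels can be compared between genes only per length, here as CPM per kilobase of the median coding transcript in the GENCODE M21 basic set. Atp5j led in both libraries, with 1189.9 CPM per kb with IL-33 and 1108 with PBS. Atp5l (1059.9 CPM per kb with IL-33 and 675 with PBS), Atp5e (999.99 CPM per kb with IL-33 and 737 with PBS) and Uqcrh (991 CPM per kb with IL-33 and 607 with PBS) held the next places in both, in a different order. The medians were 408 CPM per kb with IL-33 and 270 with PBS for the 7 genes of complex III that averaged at least 50 CPM, 403 CPM per kb with IL-33 and 338 with PBS for the 15 of complex V, 236 CPM per kb with IL-33 and 192 with PBS for the 11 of complex IV, and 134 CPM per kb with IL-33 and 113 with PBS for the 4 of complex II. Subunits that stand in equal number in a complex differed widely in level. Among these genes, the range in complex III between the lowest, Cyc1 (33.2 CPM per kb with IL-33 and 42.6 with PBS), and the highest, Uqcrh, was 29.8-fold with IL-33 and 14.2-fold with PBS. In complex II it was 2.72-fold with IL-33 and 1.46-fold with PBS. Across the 38 members at this level, log2 levels in the IL-33 and PBS libraries had a Pearson r of 0.90, as a description of genes that share 2 libraries.

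Transcript length moved with the fold. Across 3542 genes at a mean of at least 50 CPM, length and log2 fold had a Spearman rho of -0.20, and across the 38 members at that level rho was -0.50. In the shortest of 5 groups of genes by length (109 to 1223 nt), the median log2 fold was 0.44 over the 29 members there and 0.10 over all 709 genes. In this group, 24 of the 29 members lay above 0, where 58.4% of the 709 genes did, and 11 were at least 1.5-fold higher, where 17.5% were. In the next group, up to 2081 nt, the 6 members had a median of -0.05 and all 708 genes -0.07. The members with long transcripts included Sdha (2900 nt) and Atp5a1 (2471 nt), both lower, but also Cycs (3123 nt) and Uqcrc2 (1896 nt), which were higher. Over the 16 members of 1000 nt or more, chosen as a limit after the data were seen, the summed ratio was 1.07 (1.04 to 1.10) and the median log2 fold 0.048, and for complex V it was 0.990 (0.949 to 1.03). GC content moved little with the fold (rho -0.06 across the same genes, 0.11 across the members). The part of length in the differences was not tested beyond these values.

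**Figure D4:**
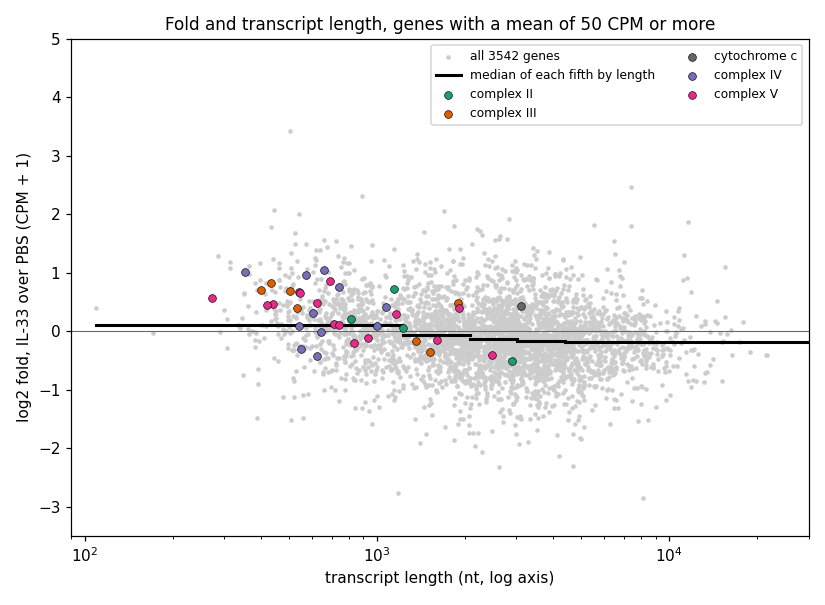
Log2 fold of IL-33 over PBS (CPM plus 1) against transcript length in nt on a log axis, for 3542 genes at a mean of at least 50 CPM in grey and members coloured by complex, with black bars for the median of each of 5 groups of genes by length; 2 genes lie outside the axes. The bars step down from 0.10 to -0.19 with length, and 24 of the 29 members of the shortest group lie above 0.

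Many members share 25-base runs with other genes, mainly processed pseudogenes, and 25-base reads may not tell these apart. Runs were matched on either strand, so a gene that overlaps a member on the opposite strand also counts, though it is no copy elsewhere. With such genes Cox4i1 shared 15.3% of its runs (Emc8), Cox5a 36.1% (Gm26631) and Atp5j 13.2% (Gabpa). Of all 25-base runs in a member's transcript, over 50% also occur in other annotated genes for 8 of the 49 members, led by Atp5g2 (100%), Atp5l (85.6%), Atp5h (65.1%) and Uqcrb (62.4%), while 12 members share none. Of the 78 other genes that share at least 5% of a member's runs, 63 are pseudogenes, and 7 have a row of their own in the table. Among the members at a mean of 50 CPM or more, the 16 that share under 10% had a median log2 fold of 0.16, with 10 above 0, and the 22 that share more had 0.42, with 18 above 0. The values of members with many shared runs are uncertain. With all members that share 10% or more left out, an alternative added after the data were seen, 26 members remained with a summed ratio of 1.14 (1.10 to 1.18) and a median log2 fold of 0.083. This limit also left out Cox4i1 and Uqcrc2, whose runs were shared mostly or wholly with a gene on the opposite strand. Counting may also mix partners on opposite strands, since its treatment of strand is not given. Genes on the opposite strand overlap 35.6% of the exon bases of Atp5o (D430001F17Rik and Gm15976) and 19.7% of those of Uqcrc2 (Pdzd9). Pdzd9 had 0 counts in both libraries, and the 25.8% of runs that Uqcrc2 shares are all shared with it. Gabpa, the gene of an ETS factor that regulates respiratory genes, overlaps 12.7% of the exon bases of Atp5j, and had 93.9 CPM with IL-33 and 45.8 CPM with PBS (2.05, 1.59 to 2.68).

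Other genes of the pathway were read from lists chosen with earlier results of these data known. Complex II assembly factors had 1 higher and 0 lower by 2-fold among 3 over the floor. Complex I subunits had 8 higher and 1 lower by 2-fold among 35 over the floor, with a median log2 fold of 0.23 (15.5% and 16.3% of all genes were called in these directions, median -0.08). Assembly factors and copper carriers of complex IV had 1 higher and 3 lower of 13 (median 0.23). Among them Ndufa4, now counted as a complex IV subunit, had 879 CPM with IL-33 and 695 CPM with PBS (1.26, 1.18 to 1.35), and Surf1, which helps insert haem, had 19.1 CPM with IL-33 and 41.3 with PBS (0.463, 0.329 to 0.653). The list of ATP synthase assembly factors, regulators and further subunits had 0 higher and 1 lower of 8 (median 0.00). In it, Atpif1, the inhibitor of ATP hydrolysis, had 139 CPM with IL-33 and 98.5 with PBS (1.41, 1.18 to 1.69) and the small subunit gene Usmg5 323 CPM with IL-33 and 313 with PBS (1.03, 0.929 to 1.15). Carriers and handlers of ADP, ATP and phosphate had 0 higher and 1 lower of 7 (median 0.10). Of these Slc25a5, a carrier that swaps ADP for ATP, had 1255 CPM with IL-33 and 853 with PBS (1.47, 1.38 to 1.56). Regulators of mitochondrial biogenesis had 2 higher and 1 lower of 11 (median 0.05), with Nrf1 at 54.2 CPM with IL-33 and 72.4 with PBS (0.748, 0.594 to 0.946) and Tfam, which packages and transcribes mitochondrial DNA, at 83.6 CPM with IL-33 and 80.7 with PBS (1.04, 0.842 to 1.28). Nrf1 was named after its value was seen, because its motif is printed above.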

How the data were processed

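RNA was measured in 1 IL-33 and 1 PBS library of muscle Treg cells. The authors deposited raw counts, whole numbers for each gene symbol. The submitters' processing notes name TopHat2 2.0.10, Cufflinks 2.2.1 and mm10, without their roles. The program that counted reads, its gene models and whether strand was used are not stated in the sources available. Column names gave the libraries; the number of unused sample columns was 0, as was that of unnamed rows.

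From the counts came CPM by library total, ratios with exact conditional (Clopper-Pearson) 95% intervals, and log2 folds on CPM with a pseudocount of 1, which shrinks the folds of low genes. The floor was 5 CPM in at least 1 library, and calls were made at 2-fold. Single libraries allow no test. The members and lists were chosen with earlier results of these data known. All members are accounted for. Genes outside them were named by a rule: from each list at most the 3 of highest mean and the 2 farthest from 0, among those averaging 20 CPM or more. Cell type markers and genes that overlap members or share their runs were named outside this rule. Lengths, positions and shared 25-base runs came from GENCODE M21 (GRCm38, the assembly mm10 names), and promoters from RefSeq (GRCm38.p6). Of 23337 symbols, 20929 matched GENCODE directly, 1914 through an earlier symbol, and 494 found no match. The computations were tested on simulated data. Tools were Python 3.11.15 with matplotlib 3.10.9, scipy 1.17.1, pandas 2.3.3 and numpy 2.4.6. TMM factors alone came from edgeR 4.0.16 in R 4.3.3. Alternatives varied scaling, pseudocount, floor, fold and membership.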

Additional observations from a re-analysis of the deposited data

How the results depend on the processing

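No paired analysis was possible because each group holds 1 library, and no library could be left out. Scaling moved the level of all ratios: by TMM the summed ratio was 1.32 for all members, 1.12, 1.54, 1.44 and 1.24 for complexes II, III, IV and V, and by median-of-ratios scaling 1.32, 1.11, 1.53, 1.43 and 1.24. Without the 10 most abundant genes in the total, the ratio of all members was 1.24. The median of all genes moved by 0.13 with TMM, 0.12 with median of ratios and 0.04 with the reduced total, and TMM put 56.3% of all 2-fold calls on the higher side, in place of 48.8%.

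The counts of members past 2-fold are small and moved easily. With a pseudocount of 5 CPM, 1 was higher and 0 were lower; with a floor of 20 CPM, 0 were lower; without non-subunits and tissue isoforms, 0 were lower; at 1.5-fold, 11 were higher. The mean log2 fold in place of the median was 0.26 for all members and 0.19 for complex V. Without Sdha, its member of highest mean CPM, complex II had a ratio of 1.28.

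Among alternatives chosen after seeing the data, leaving out members that share 10% or more of their 25-base runs gave ratios of 1.14 for all members, 1.15 for complex III, 1.71 for complex IV and 1.06 for complex V, and medians of 0.083 for all members, 1.01 (complex IV) and 0.12 (complex V). For complex IV only 3 members over the floor were left, Cox6b1 and Cox7a2, both higher, and Cox8a. The complex III median was -0.17 under this limit, which left 4 genes over the floor, and under the next, in place of 0.47. Both limits left Cyc1, Uqcrc1 and Uqcrfs1, and both medians are the midpoint of Uqcrc1 and Uqcrfs1. The intervals of that pair held 1, so these medians are not separate results. The cause was not tested. Keeping only transcripts of 1000 nt or more gave ratios of 1.07 for all members, 1.11 for complex III and 1.20 for complex IV, a median of 0.048 for all members and 0 members 2-fold higher. The ratio of complex V fell to 0.990, with an interval (0.949 to 1.03) that held 1. Its median changed sign to -0.15, close in size to the 0.13 by which TMM moved the median of all genes. The genes over the floor were Atp5a1, Atp5b, Atp5c1, Atp5f1 and Atp5s, and the median is the value of Atp5f1. Its sign rests on Atp5s, which is thinly counted and not a subunit. Without Atp5s the middle pair is Atp5f1 (-0.15) and Atp5c1 (0.30), on opposite sides of 0. The cause was not tested. Per kilobase, the c-subunit shares were 27.6%, 27.3% and 45.1% for Atp5g1, Atp5g2 and Atp5g3 in the IL-33 library, and 25.8% and 54.3% for Atp5g2 and Atp5g3 in the PBS library.

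Depth limits Cox7a1, Atp5sl, Atp5s, Uqcrc1 and Uqcr11 most among members with counts, and the PBS library, with fewer counts, sets the width of most intervals.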

Other observations

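Genes of the citric acid cycle, which feeds complex II, had 1 higher and 3 lower by 2-fold of 16 (15.5% and 16.3% of all genes were called in these directions), a median log2 fold of -0.01 and a summed ratio of 0.980. Fh1, the fumarase that takes up the product of complex II, had 27.9 CPM with IL-33 and 74.3 CPM with PBS (0.376, 0.288 to 0.491). Sucla2, a subunit of the enzyme that makes its substrate succinate, had 21.3 CPM with IL-33 and 61.6 with PBS (0.346, 0.256 to 0.467), and Mdh2, the malate dehydrogenase of the matrix, 470.3 CPM with IL-33 and 463 with PBS (1.02, 0.932 to 1.11). Vdac1, an outer-membrane channel, had 57.6 CPM with IL-33 and 144 with PBS (0.399, 0.331 to 0.481), while Slc25a3, the phosphate carrier, had 376 CPM with IL-33 and 480 with PBS (0.784, 0.718 to 0.856). Assembly factors of complex III were all thinly counted, with 80 counts with IL-33 and 74 with PBS for 4 genes, and 0 were higher and 2 lower by 2-fold of 3 over the floor, beside the same shares of all genes.

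The core subunits Uqcrc1 and Uqcrc2 stand in equal number in complex III, yet Uqcrc1 was at 8.45 CPM per kb with IL-33 and 9.61 with PBS, against 135 CPM per kb with IL-33 and 96.9 with PBS for Uqcrc2. Uqcrc1 shares 1.78% of its 25-base runs with other genes and Uqcrc2 25.8%, all of the latter with Pdzd9 on the opposite strand.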
